A study of Mus musculus with 20 samples.

Results

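Heca and Nipa2 are 2 of the 55416 genes in the count table and 2 of the 14471 with enough counts to be tested. They were chosen by their measured difference between treatments, as the genes with the smallest p-values among those with more RNA in secretome-treated than in control quadriceps. That difference, and the same difference among libraries 6 to 15, which the choice also used, is therefore given as a description. The muscles came from male, wild-type C57BL/6J mice aged 26 to 28 months. Of these, 10 control mice had received 50 µL of 0.9% saline. The 10 secretome-treated mice had received 50 µL of a product made from medium of pluripotent stem cells. Per the study's methods these were partly differentiated human embryonic stem cells. For its longer experiment of repeated injections, the study describes the product as diluted in saline. Here the injection was given once, into the right quadriceps, and the fasted mice were sampled 3 h later. Both groups thus share the age, the fast and the injection itself. The study asked how old muscle responds acutely to the secretome.

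Heca encodes the mouse homolog of headcase, a cytoplasmic protein first studied in flies, where it holds back proliferation in tissues that later form the adult and works with the RNA-binding protein Unkempt downstream of nutrient and growth signals. In mammals it has been described as a brake on the cell cycle. Nipa2 encodes a membrane transporter of magnesium that sits at the cell surface and in early endosomes, and its relative Nipa1 both carries magnesium and limits the receptors for bone morphogenetic proteins (BMPs). Magnesium is bound by the ATP that muscle fibres burn in contraction. Both genes are commonly regarded as broadly expressed.

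The 250 bases upstream of each gene's start are shown because both members were higher after the same treatment, and they let the sequence in front of each gene be compared. They are from RefSeq on mouse build GRCm38.p6 and are read along the gene, which lies on the minus strand in both cases. The Heca window is chr10:17948068-17948317 and the Nipa2 window is chr7:55962494-55962743. Capitals mark a cyclic AMP response element (CRE, TGACGTCA), a lone CRE core (TGACG, or CGTCA on the other strand) or an E-box (CACGTG).
Heca: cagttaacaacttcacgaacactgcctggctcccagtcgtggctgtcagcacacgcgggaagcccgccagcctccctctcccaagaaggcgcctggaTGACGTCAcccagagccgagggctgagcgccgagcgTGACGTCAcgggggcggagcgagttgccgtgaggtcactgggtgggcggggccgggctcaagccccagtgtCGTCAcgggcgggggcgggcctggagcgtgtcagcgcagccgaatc
Nipa2: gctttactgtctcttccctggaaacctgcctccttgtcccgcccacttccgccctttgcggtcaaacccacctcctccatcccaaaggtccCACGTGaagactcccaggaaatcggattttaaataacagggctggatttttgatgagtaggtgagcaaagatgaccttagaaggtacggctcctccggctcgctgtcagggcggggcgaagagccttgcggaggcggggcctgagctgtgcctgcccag

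The Heca promoter held the full CRE 2 times, at bases -153 to -146 and -117 to -110 counted from the gene's start, and a further CRE core at -46 to -42. Motifs were searched from 250 bases before to 50 after the start, and 1.88% of the 27025 mouse promoters in the table held at least 1 CRE in that window. Of them 13, or 0.0481%, held 2 or more. The CRE reads the same on both strands and contains the core 2 times, so those matches overlap. The CRE is the sequence bound by CREB and related factors that answer to cyclic AMP.

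The Nipa2 promoter held no full CRE. It had a CRE core downstream of the start, at +14 to +18, and 5681 of the 27025 promoters held at least 1 core. It also had an E-box, the core bound by several basic helix-loop-helix factors, at -159 to -154, and 7.24% of promoters held one. GC boxes (GGGCGG), the sequence bound by Sp1, were found 4 times for Heca and 3 times for Nipa2, against 35.9% of promoters with at least 1. Neither promoter held a CCAAT box (CCAAT), TATA box (TATAAA), ETS site (CCGGAAGT), NRF1 site, FOXO site (TGTTTAC), palindromic glucocorticoid response element or AP-1 site (TGANTCA). Both windows were rich in C and G, with a GC content of 68.3% and 31 CpG dinucleotides for Heca and 59.0% and 19 for Nipa2, against medians of 52.7% and 7 over all promoters. A match is a string of letters, and binding was not measured.

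Library totals ran from 13286983 to 22987237 counted reads. Ttn, which encodes the giant sarcomere protein titin, took 7.02 to 11.03% of the reads in control replicates 1 to 5 (libraries 1 to 5), 16.4 to 21.1% in control replicates 6 to 10 (libraries 6 to 10), 17.8 to 20.7% in secretome replicates 1 to 5 (libraries 11 to 15) and 14.2 to 14.7% in secretome replicates 6 to 10 (libraries 16 to 20). No label names a batch for these ranges, so values are repeated for libraries 6 to 15, where both treatments occur. In the other libraries the range and the treatment cannot be told apart. The label's tissue was checked against 11 skeletal muscle fibre markers, and all 11 were counted in every muscle. Markers of other cell types were present as well, and in bulk muscle a lower number of cells of a type and less RNA per cell cannot be told apart.

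Heca (ENSMUSG00000039879, chromosome 10) was counted 313 to 697 times in control and 623 to 934 times in secretome-treated muscle. As counts normalized for library size and composition (CPM), it was 37.2, 19.4, 25.9, 30.2 and 30.0 in control replicates 1 to 5 and 30.2, 32.4, 29.6, 32.9 and 33.7 in control replicates 6 to 10. It was 37.8, 41.0, 41.6, 45.5 and 42.0 CPM in secretome replicates 1 to 5 and 51.2, 40.5, 41.7, 38.7 and 44.8 CPM in secretome replicates 6 to 10. The groups did not overlap, although the highest control, replicate 1, lay only just below the lowest secretome-treated muscle, replicate 1 of that group. Control replicate 2 was the lowest of all muscles and secretome replicate 6 the highest.

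The mean Heca level was 30.2 ± 4.81 CPM in control and 42.5 ± 3.87 CPM in secretome-treated muscle (SD, n = 10 each), a log2 fold change of 0.49 (SE 0.0908) or 1.41-fold. Every secretome-treated muscle lay above every control in 5 of the 14471 genes tested, or 0.0346%. Heca was one of them, and Rmnd5a and Rab21 were among the others. Heca held the first place among the higher genes by p, which is what chose it.

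Nipa2 (ENSMUSG00000030452, chromosome 7) was counted 304 to 558 times in control and 477 to 684 times in secretome-treated muscle. It was 25.4, 18.9, 22.4, 19.7 and 23.6 CPM in control replicates 1 to 5 and 22.8, 28.4, 22.5, 24.6 and 26.5 CPM in control replicates 6 to 10. It was 31.8, 27.0, 31.8, 33.8 and 26.4 CPM in secretome replicates 1 to 5 and 35.0, 28.7, 32.3, 25.7 and 36.7 CPM in secretome replicates 6 to 10. Here the groups overlapped. Control replicates 7 and 10 lay at or above the lowest secretome-treated muscle, replicate 9, and 7 of 10 secretome-treated muscles lay above every control.

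The mean Nipa2 level was 23.5 ± 2.92 CPM in control and 30.9 ± 3.79 CPM in secretome-treated muscle (SD, n = 10 each), a log2 fold change of 0.40 (SE 0.0857) or 1.32-fold. All 10 secretome-treated muscles lay above the control median for both members, as they did in 604 genes or 4.17% of those tested. Nipa2 held the second place among the higher genes by p. The next were Cebpg at a log2 fold change of 0.36, Kctd9 at 0.38 and Smim13 at 0.34.

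The values that chose the members did not pass a 5% false discovery rate. In edgeR's quasi-likelihood test the adjusted p was 0.0704 for Heca and 0.109 for Nipa2, and 1 gene of 14471 passed in either direction (0.00691%), which was lower in secretome-treated muscle. Before adjustment, 944 genes (6.52%) were higher and 1333 (9.21%) lower with p under 0.05, and the median log2 fold change over all tested genes was -0.03. DESeq2, the program used in the study, gave an adjusted p under 0.05 for both members, beside 70 higher genes (0.404% of 17310) and 146 lower genes (0.843%).

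**Figure D1:**
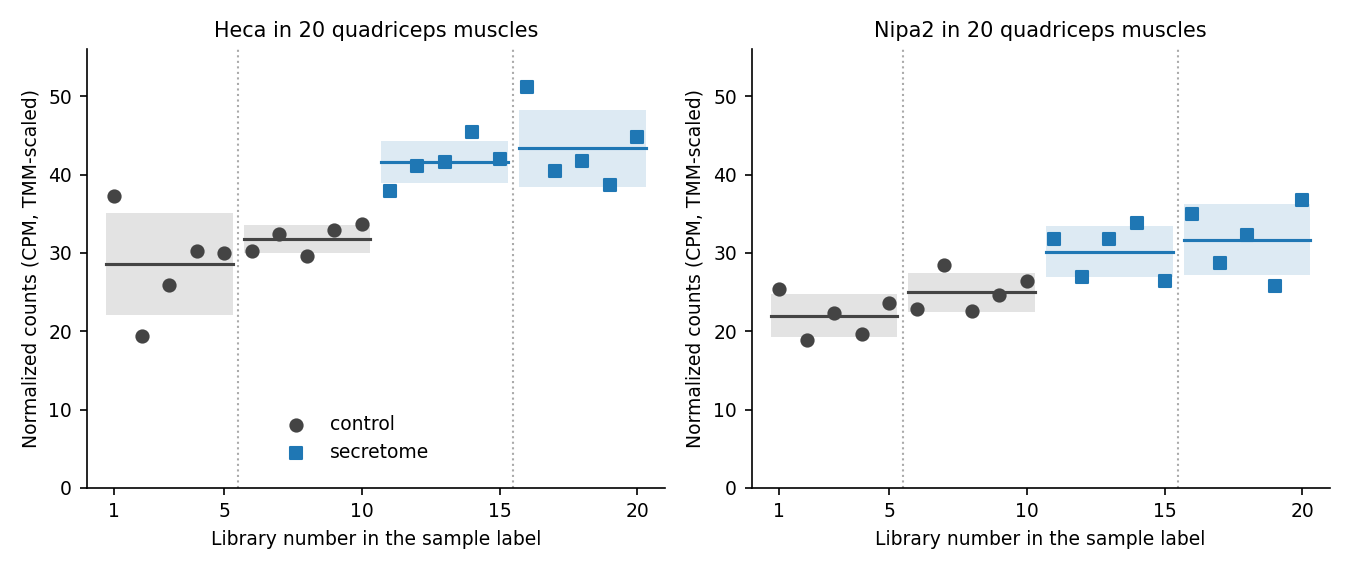
Heca (left) and Nipa2 (right) in each of 20 muscles, in CPM (y axis) against the library number in the sample label (x axis). Circles are control and squares secretome-treated muscles, lines and bands are the mean ± SD of each set of 5, dotted lines part the ranges of libraries, and Heca shows no overlap between treatments (highest control 37.2, lowest secretome 37.8) where Nipa2 shows some.

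Within libraries 6 to 15, Heca was 31.8 ± 1.79 CPM in control and 41.6 ± 2.72 CPM in secretome-treated muscle (SD, n = 5 each), with a log2 fold change of 0.40 (SE 0.0869) or 1.32-fold. The groups did not overlap, as was the case for 118 genes or 0.815% of those tested in this direction. Nipa2 was 25.0 ± 2.50 and 30.1 ± 3.25 CPM, with a log2 fold change of 0.28 (SE 0.106) or 1.22-fold, and 3 of 5 secretome-treated muscles lay above every control. By p among the higher genes of these libraries, Heca held place 2 and Nipa2 only place 273. The edgeR test of Nipa2 here gave an unadjusted p of 0.0180 and an adjusted p of 0.452. In these libraries, 727 genes (5.02%) were higher with an unadjusted p under 0.05, and the number past a 5% false discovery rate was 0 (0%).

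In the outer libraries, 1 to 5 against 16 to 20, both members differed more. Heca was 28.6 ± 6.51 CPM in control and 43.4 ± 4.92 CPM in secretome-treated muscle, with a log2 fold change of 0.60 (SE 0.160). Nipa2 was 21.98 ± 2.72 and 31.7 ± 4.49 CPM, with a log2 fold change of 0.53 (SE 0.132). For both, every secretome-treated muscle of these libraries lay above every control, as in 363 genes or 2.51%. The shift of the members between the sets of libraries was not tested because the rule used the same contrast.

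The spread of Heca was uneven across the sets of 5. Its coefficient of variation was 22.8% in controls 1 to 5, where the share of Ttn was lowest, 5.63% in controls 6 to 10, 6.54% in secretome replicates 1 to 5 and 11.3% in secretome replicates 6 to 10. Counting error alone, the Poisson error of the reads, gave 4.37% in control and 3.59% in secretome-treated muscle on average. That of Nipa2 was between 10.0 and 14.2% in all 4 sets, above its counting error of 4.93% and 4.22%. The biological coefficient of variation fitted by edgeR was 0.151 for Heca and 0.144 for Nipa2, against a median of 0.170 among the 1204 genes of about the level of Heca and 0.171 among the 1395 of about that of Nipa2. Of those genes, 32.3% and 25.1% had a lower one, so both members lay on the steadier side without standing at the end. A choice by small p favours genes with a low fitted spread, so this is a description only.

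Per kilobase of exon, the mean level over all muscles was 5.81 CPM for Heca and 3.85 CPM for Nipa2. Heca lay at percentile 71.7 and Nipa2 at percentile 61.3 of the 14415 tested genes with a known length. Both are thus mid-level transcripts of this muscle. The log2 ratio of Heca to Nipa2 counts within a muscle was 0.35 ± 0.17 for controls against 0.46 ± 0.14 for secretome-treated muscles (SD, n = 10 each) and overlapped between the groups.

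With library totals alone, without the scaling for composition, the median log2 fold change of all genes moved by -0.13 to -0.16. Heca then had a log2 fold change of 0.38, its groups overlapped with 2 controls at or above the lowest secretome-treated muscle, and within libraries 6 to 15 they still did not overlap. Nipa2 had a log2 fold change of 0.28, with 6 controls at or above the lowest secretome-treated muscle and 7 of 10 secretome-treated muscles above the control median. These ranges under other scalings were computed after the data were seen.

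**Figure D2:**
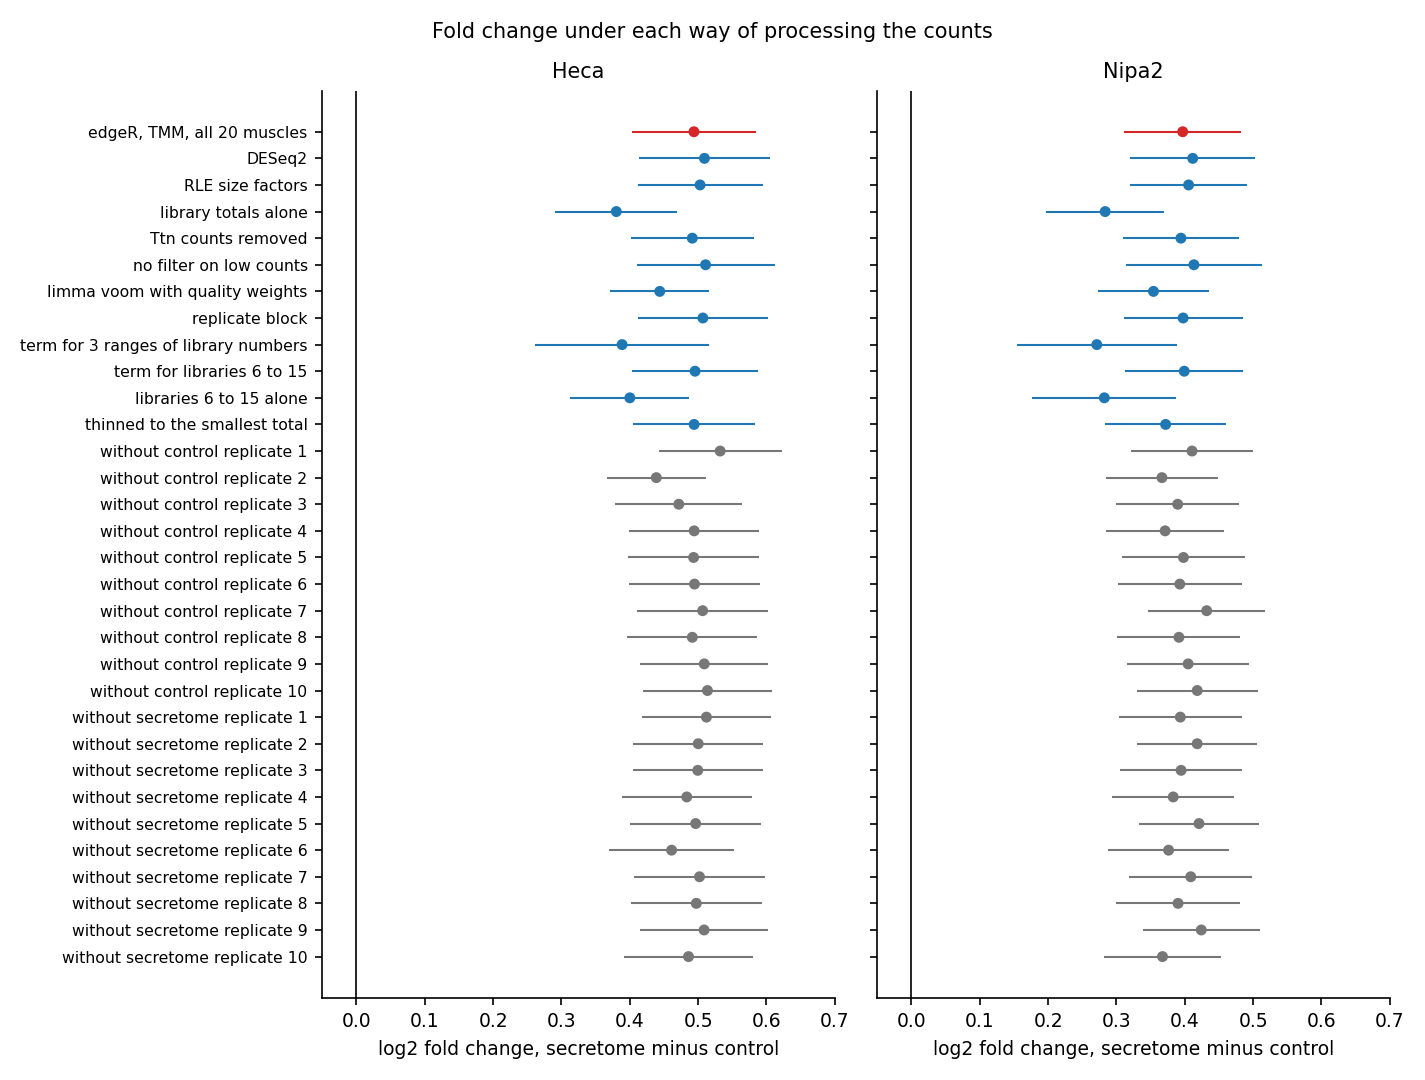
Log2 fold change of Heca (left) and Nipa2 (right), secretome minus control, under each way of processing the counts (rows), with bars of ± 1 SE. The red point is the edgeR fit of all 20 muscles, blue points are other settings and grey points leave out 1 muscle each. All points lie above 0, from 0.38 to 0.53 for Heca and from 0.27 to 0.43 for Nipa2. They refit the muscles on which both genes were chosen.

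The genes nearest to each member on its chromosome were compared next, to see whether the difference was shared along the chromosome. Of the 5 nearest protein-coding genes on each side of Heca, 9 were tested, 3 higher and 6 lower, and 0 passed a 5% false discovery rate. Their median log2 fold change was -0.15, against -0.03 over all tested genes, and -0.05 within libraries 6 to 15. Txlnb, which encodes the muscle protein beta-taxilin and lies next to Heca on the opposite strand, had a log2 fold change of 0.30 (SE 0.160, adjusted p = 0.356 in edgeR), or 0.25 within libraries 6 to 15. Cited2, a coregulator of transcription on the same side, had -0.16 (SE 0.184, adjusted p = 0.697), or -0.17 within those libraries.

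On the other side of Heca, Abracl had a log2 fold change of -0.41 (SE 0.268, edgeR adjusted p = 0.456), or -0.05 within libraries 6 to 15, and Reps1, an endocytic adaptor, had 0.02 (SE 0.101, adjusted p = 0.950), or -0.10 with library totals alone. Ccdc28a was the only neighbour with an unadjusted p under 0.05, with -0.42 (SE 0.173, adjusted p = 0.250) and -0.22 within libraries 6 to 15. The log2 ratio of Heca to Reps1 counts within a muscle does not depend on the scaling of the library. It was 0.11 ± 0.32 for controls against 0.58 ± 0.24 for secretome-treated muscles (SD, n = 10 each). Those ranges overlapped. This ratio reuses the Heca values that chose the gene, so its difference between treatments is a description only.

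Nipa2 lies in a block with Nipa1, Cyfip1 and Tubgcp5 that is kept together in mouse and human, with Herc2 beside it. Cyfip1, a subunit of the WAVE complex that drives actin branching, overlaps Nipa2 on the opposite strand in the annotation used here, with 4 overlaps between exons. Whether the counting used strand is not given in the sources used here, so reads of this overlap may be split between them. Cyfip1 was 39.2 ± 2.44 CPM in control and 39.5 ± 3.45 CPM in secretome-treated muscle (SD, n = 10 each), with a range of 34.4 to 42.8 against 36.4 to 46.9. Its log2 fold change was 0.01 (SE 0.0643, edgeR adjusted p = 0.946), and it was -0.11 within libraries 6 to 15 and -0.11 with library totals alone.

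The log2 ratio of Nipa2 to Cyfip1 counts within a muscle was -0.75 ± 0.15 for controls against -0.36 ± 0.17 for secretome-treated muscles (SD, n = 10 each). It ran from -1.01 to -0.51 in control and from -0.61 to -0.04 in secretome-treated muscle, a small overlap. The ratio reuses the Nipa2 values that chose the gene, so its difference between treatments is a description only. Nipa1, the next gene on the same strand as Nipa2, was 4.62 ± 2.10 and 4.43 ± 1.26 CPM, with a log2 fold change of -0.06 (SE 0.231, edgeR adjusted p = 0.918) that was 0.02 with the replicate number as a block. Tubgcp5, part of the ring that nucleates microtubules, had 0.08 (SE 0.118, adjusted p = 0.763), and -0.05 with library totals alone. Tubgcp5 had 0.30 within libraries 6 to 15 (SE 0.134, unadjusted p = 0.0423, adjusted p = 0.495 in edgeR), beside 0.28 for Nipa2 and -0.29 for Nipa1.

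Herc2, a giant ubiquitin ligase, had a log2 fold change of 0.16 (SE 0.133, edgeR adjusted p = 0.558). Its value was -0.15 within libraries 6 to 15 and 0.58 in the outer libraries. The difference between them was 0.75, with an adjusted p of 0.129 in edgeR's interaction test. Over these 4 tested neighbours, Herc2 included, 3 were higher and 1 lower, with a median of 0.05, which became 1 higher and 3 lower, with a median of -0.08, under library totals alone, and 0 had an unadjusted p under 0.05. Their median within libraries 6 to 15 was -0.13, and 1 of them, Tubgcp5, was higher with an unadjusted p under 0.05, beside 5.02% of all tested genes. The other 6 of the 10 nearest genes of Nipa2 had too few counts to be tested.

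**Figure D3:**
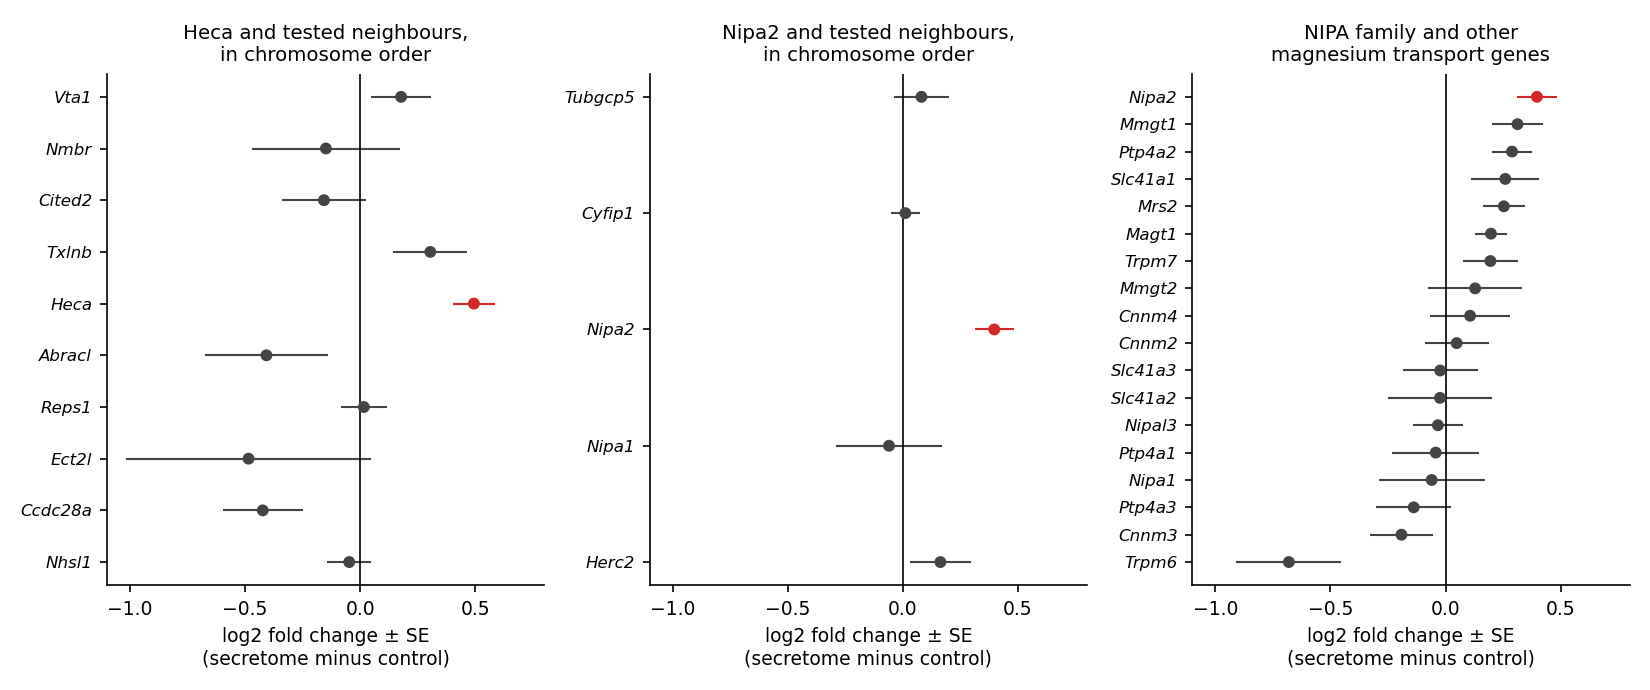
Log2 fold change ± SE, secretome minus control (x axis), of Heca and its tested neighbours (left), Nipa2 and its tested neighbours (middle), and the NIPA family with other magnesium transport genes (right, ordered by value). The members are in red. Heca at 0.49 and Nipa2 at 0.40 lie to the right of their neighbours, with Txlnb at 0.30 the nearest in value. Both members were chosen on this difference, so their place is a description only. Within libraries 6 to 15, not shown here, Tubgcp5 had 0.30 and Nipa2 0.28.

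Of the 6 NIPA family genes, 3 were tested, Nipa1, Nipa2 and Nipal3. Nipal3 was 16.1 ± 2.88 CPM in control and 15.7 ± 2.60 CPM in secretome-treated muscle (SD, n = 10 each), with a log2 fold change of -0.03 (SE 0.109, edgeR adjusted p = 0.903) that turned positive in 3 of the fits that left out 1 muscle and was -0.23 within libraries 6 to 15. Per kilobase of exon, in secretome-treated muscle, Nipa2 stood at 4.38 CPM, Nipal3 at 2.07 CPM and Nipa1 at 1.39 CPM. Nipa2 was thus the family member with the highest level per length. Nipal1, Nipal2 and Nipal4 reached at most 4, 13 and 4 counts in any muscle.

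Of 17 other magnesium transport genes, 15 were tested, 9 higher and 6 lower, with a median log2 fold change of 0.11 against -0.03 over all genes. With library totals alone 7 were higher and 8 lower, with a median of -0.03 against -0.16 over all genes, so the list lay 0.14 and 0.13 above all genes under the 2 scalings. At an unadjusted p under 0.05, 4 were higher and 1 lower, beside 6.52% and 9.21% of all tested genes, and 0 passed the false discovery rate. Ptp4a2, a phosphatase that binds the CNNM magnesium transporters, was 546 ± 76.7 CPM in control and 667 ± 53.5 CPM in secretome-treated muscle (SD, n = 10 each), with a log2 fold change of 0.29 (SE 0.0870, edgeR adjusted p = 0.158) and 0.30 within libraries 6 to 15. All 10 of its secretome-treated muscles lay above the control median, and its adjusted p in DESeq2 was 0.0302. Trpm6, a channel for magnesium, had -0.68 (SE 0.228, edgeR adjusted p = 0.187) at no more than 22 counts in a muscle.

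The others were named after their values were seen. Magt1, a magnesium transporter that also serves protein glycosylation, had a log2 fold change of 0.20 (SE 0.0701, edgeR adjusted p = 0.203), and Mrs2, the magnesium channel of mitochondria, had 0.25 (SE 0.0916, adjusted p = 0.205). Mmgt1, a subunit of the complex that inserts membrane proteins, had 0.31 (SE 0.111, adjusted p = 0.203). Within libraries 6 to 15 these were 0.27, 0.07 and 0.29, and the list's median was 0.06 against -0.01 over all genes. In those libraries 4 of its genes were higher at an unadjusted p under 0.05, beside 5.02% of all tested genes. They were Ptp4a2, Magt1, Trpm7 and Cnnm2, without Mrs2 and Mmgt1.

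BMP receptors, Smads and the Id genes they switch on were listed because of the tie of the NIPA family to BMP receptors. Of 15, 14 were tested, 9 higher and 5 lower, with a median of 0.11, or 0.02 within libraries 6 to 15. With library totals alone 7 were higher and 7 lower, and the list lay 0.16 above the median of all genes against 0.15 before. At an unadjusted p under 0.05, 3 were higher, beside 6.52% of all tested genes, and 0 passed the false discovery rate. These were the receptors Bmpr2 at 0.27 (SE 0.110, edgeR adjusted p = 0.242) and Bmpr1a at 0.27 (SE 0.118, adjusted p = 0.278), and Smad5, which carries the signal to the nucleus, at 0.20 (SE 0.0851, adjusted p = 0.266). Bmpr1a was named after its value was seen. Within libraries 6 to 15 the values were 0.21, 0.41 and -0.01. The targets Id1, Id2 and Id3, seen after the fact, had -0.31, -0.37 and -0.33, each with an unadjusted p above 0.05 over all muscles. Id1 had -0.32 within libraries 6 to 15 (unadjusted p = 0.0460, adjusted p = 0.498 in edgeR).

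For Heca, the partner Unk, which encodes Unkempt, was 13.9 ± 1.95 CPM in control and 13.8 ± 1.40 CPM in secretome-treated muscle (SD, n = 10 each), a log2 fold change of -0.01 (SE 0.0875, edgeR adjusted p = 0.977), or -0.07 within libraries 6 to 15. Of 10 genes for Unkempt and cyclin-dependent kinases, 7 were tested, 2 higher and 5 lower, with a median of -0.06. Unkl, a paralog of Unk, was the only one with an unadjusted p under 0.05, at -0.20 (SE 0.0892, adjusted p = 0.280), or -0.14 within those libraries. Ccnk, the cyclin partner of Cdk12 and Cdk13, had 0.25 (SE 0.161, adjusted p = 0.455). Cdk1 and Ccna2, which dividing cells need, and Ccna1 were not tested and reached at most 4, 16 and 3 counts in a muscle.

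All 11 genes of the mTORC1 growth pathway were tested, 7 higher and 4 lower, with a median of 0.02, and 0 had an unadjusted p under 0.05. With library totals alone 5 were higher and 6 lower, with a median of -0.10. Rps6kb1, the S6 kinase, had a log2 fold change of 0.28 (SE 0.150, edgeR adjusted p = 0.362), and 0.32 within libraries 6 to 15 (unadjusted p = 0.0430, adjusted p = 0.495). Mtor itself had 0.17 (SE 0.103, adjusted p = 0.422), which was -0.10 within libraries 6 to 15 and 0.50 in the outer libraries, a difference of 0.61 with an adjusted p of 0.145 in edgeR's interaction test.

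**Figure D4:**
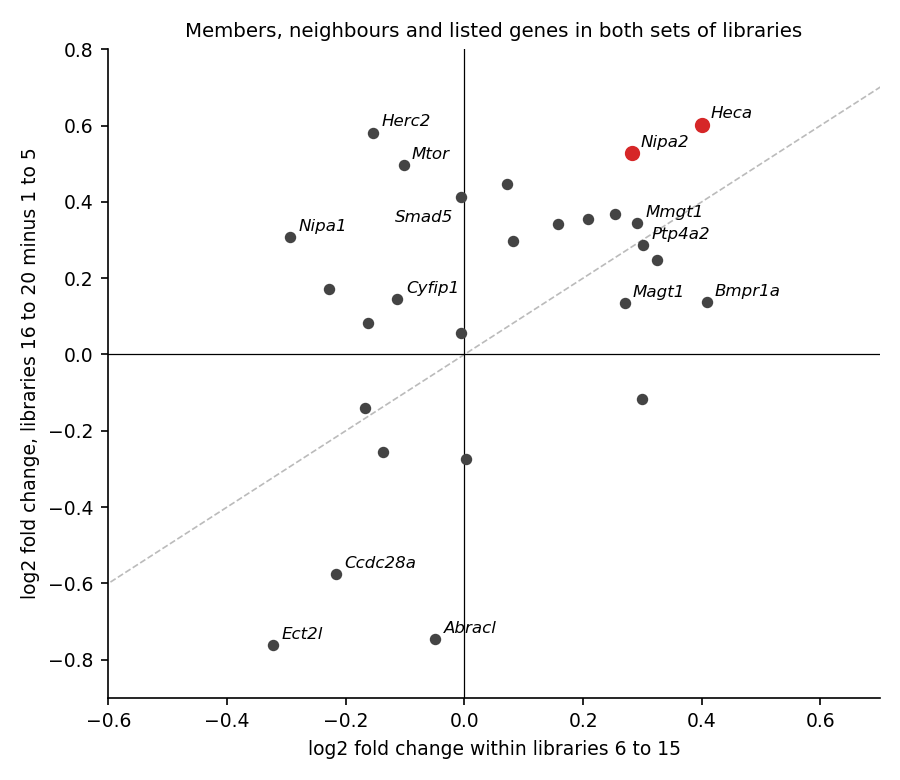
Log2 fold change within libraries 6 to 15 (x axis) against that of libraries 16 to 20 minus 1 to 5 (y axis) for the members (red) and for neighbours, family members and listed genes (grey), with the line of equal values dashed. Heca at 0.40 and 0.60 and Nipa2 at 0.28 and 0.53 are positive on both axes, while Herc2, Mtor, Nipa1 and Cyfip1 are negative on the x axis and positive on the y axis.

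The levels of the members were then compared within treatments, a measure that the choice of the genes did not use. In libraries 6 to 15, after the mean of each treatment was taken out, the Pearson correlation of log2 CPM of Heca and Nipa2 was 0.44 (two-sided exact permutation test, p = 0.231, n = 10 muscles) and Spearman's rho was 0.51 (exact permutation p = 0.170). The Pearson test in libraries 6 to 15 was the main test of this relation. The other p-values given for it come from variants of that test and are not adjusted. The relation did not pass the test. Without the muscles farthest from the median of centred Heca, secretome replicates 1 and 4, r was 0.62 (exact permutation p = 0.153), and without those farthest in level before centring, secretome replicate 4 and control replicate 8, it was 0.02 (exact permutation p = 0.946). The size of r thus depended on which muscles were left out. Without secretome replicate 1, r was 0.73 (exact permutation p = 0.0420).

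Over all 20 muscles, with the mean of each set of 5 taken out, r was 0.62 and Spearman's rho was 0.64. The permutation test of r gave p = 0.00539 with 100000 resamples, and without control replicates 1 and 2, the farthest from the median of Heca, r was 0.52. By that measure Nipa2 ranked 1296 among 13214 genes in likeness to Heca, and Heca ranked 56 in likeness to Nipa2. Many genes followed Heca within the sets and many ran opposite to it. The 5th and 95th percentiles of r over all genes were -0.633 and 0.702 for Heca, against -0.417 and 0.454 for Nipa2.

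**Figure D5:**
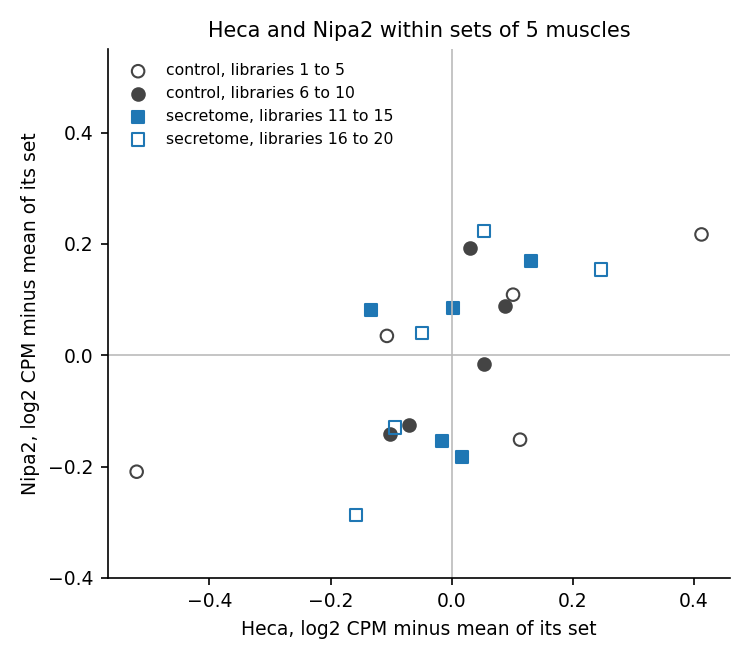
Nipa2 (y axis) against Heca (x axis) in 20 muscles, each as log2 CPM minus the mean of its set of 5. Circles are control and squares secretome-treated muscles, and filled symbols are libraries 6 to 15. Control replicates 1 and 2 lie at the far right and far left, and r was 0.62 over all muscles and 0.44 over the filled ones.

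The genes whose levels were most like Heca over the 20 muscles, by the same centred Pearson correlation, were Pja2 (r = 0.92), Chmp1b (0.90), Rab11a (0.89), Vegfd (0.88) and Caprin1 (0.88). Without control replicates 1 and 2 these were 0.71, 0.78, 0.73, 0.68 and 0.72, and in libraries 6 to 15 alone that of Pja2 was 0.35. Rab11a, a small GTPase of recycling endosomes, was 30.7 CPM in control and 38.2 CPM in secretome-treated muscle on average, with a log2 fold change of 0.32 (SE 0.106, edgeR adjusted p = 0.181), and 10 of 10 secretome-treated muscles lay above its control median. Vegfd, a growth factor for lymphatic vessels, had -0.10 (SE 0.159, adjusted p = 0.789). Within libraries 6 to 15 the value of Vegfd was 0.08. Chmp1b and Caprin1 had 0.08 and 0.09 over all muscles, and -0.05 and -0.02 with library totals alone.

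The genes most like Nipa2 were Phf10 (r = 0.83), Sfr1 (0.77), Ptrhd1 (0.76), Lsamp (0.73) and G3bp2 (0.72). Phf10, a subunit of a chromatin remodelling complex, kept 0.80 both without control replicates 1 and 2 and in libraries 6 to 15 alone. It had a log2 fold change of 0.22 (SE 0.0738, edgeR adjusted p = 0.180), with 9 of 10 secretome-treated muscles above its control median. Ptrhd1 had -0.23 (SE 0.137, adjusted p = 0.413), and was 0.02 within libraries 6 to 15. The points of these correlations share their libraries, their depth and the scaling, and no test is attached to them.

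The CREs of the Heca promoter can be set beside the other genes with that sequence. Without Heca, 331 tested genes had at least 1 CRE in the same window, 187 higher and 144 lower, with a median log2 fold change of 0.03 against -0.03 over all genes, and of 0.03 against -0.01 within libraries 6 to 15. At an unadjusted p under 0.05, 30 were higher (9.06%) and 22 lower (6.65%), beside 6.52% and 9.21% of all tested genes, and 0 passed the false discovery rate. Of the 13 genes with 2 or more CREs, 9 besides Heca were tested, 4 higher and 5 lower. They ran from Ralgapa1, which restrains Ral GTPases, at 0.26 (SE 0.0923, edgeR adjusted p = 0.204) to Chpf, an enzyme of chondroitin synthesis, at -0.49 (SE 0.200, adjusted p = 0.247).

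Other measures differed between the treatments or between the sets of 5 muscles. The summed level of 7 macrophage markers ran from 40.5 to 139 CPM in control (median 75.3) and from 32.7 to 103 CPM in secretome-treated muscle (median 42.1). All 7 had a negative log2 fold change (median -0.75), 5 of them with an unadjusted p under 0.05, beside 9.21% of all tested genes, but 0 past the false discovery rate. By set of 5 the median sum was 87.0 and 60.8 CPM in control and 39.1 and 79.8 CPM in secretome-treated muscle. The summed muscle fibre markers had medians of 154780 and 314910 CPM in the sets of control and 311970 and 256710 CPM in those of secretome-treated muscle. The part of these shifts in the difference of Heca and Nipa2 was not tested.

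The other marker lists had 0 genes past the false discovery rate. Their median log2 fold changes were 0.08 for muscle fibres, 1.12 for neutrophils, with 4 of 6 markers tested, -0.10 for endothelial cells, -0.39 for fibroblasts and fibro-adipogenic progenitors, -0.62 for adipocytes, -0.22 for Schwann cells, -0.60 for blood and -0.05 for satellite cells. The medians within libraries 6 to 15 were -0.95 for macrophages, -0.09 for muscle fibres, 0.06 for neutrophils, -0.18 for endothelial cells, -0.31 for fibroblasts and progenitors, -0.47 for adipocytes, -0.20 for Schwann cells, -0.02 for blood and 0.07 for satellite cells, while Heca and Nipa2 stood at 0.40 and 0.28.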

How the data were processed

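The authors deposited whole-number read counts per gene, without normalization, for 20 muscles, each from a separate mouse. RNA from muscle tissue was depleted of ribosomal RNA, made into stranded libraries and sequenced in pairs of 150 bases. The submitters' processing notes name cutadapt 1.16, STAR 2.7.9a, featureCounts 1.6.3, DESeq2 1.34.0 and build GRCm39. Whether strand was used in counting is not given in the sources used here. The depth was 13286983 to 22987237 counts per muscle. No pair of columns was identical.

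Groups came from the sample titles. Counts were filtered with filterByExpr, which kept 14471 of 55416 genes, and scaled with TMM in edgeR 4.0.16 (R 4.3.3). The robust quasi-likelihood F-test compared treatments, fitting treatment alone, and p-values were adjusted by Benjamini-Hochberg over all tested genes. SEs were obtained by dividing the log2 fold change by the square root of F, and log2 CPM used a prior count of 2. The interaction test compared libraries 6 to 15 with the others. Correlations were tested by permutation. P-values of the F-test set the treatment difference against the spread between these muscles. The code was tested on simulated counts.

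The members and lists were chosen with earlier results of these data known. Named genes were the members, their NIPA relatives, their 5 nearest protein-coding neighbours on each side, 2 genes per other list by smallest p, and the 5 genes most correlated with each member, with exceptions named in the text. Names, exon lengths and neighbours came from GENCODE M21 and promoters from RefSeq, both on GRCm38, another build than that of the counts, so no coordinates of the counts are given. The promoter table covered 250 bases before to 50 after each start. Tusc3 was not analysed here.

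Alternatives were DESeq2 1.42.0, RLE factors, library totals alone, removal of Ttn, no filter, voom of limma 3.58.1 with quality weights, a replicate block, terms for ranges of library numbers, libraries 6 to 15 alone, thinning to the smallest total, a 10% false discovery rate and each muscle left out.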

Additional observations from a re-analysis of the deposited data

Results flagged for a closer look

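In 6 of the 76 groups of 10 muscles examined, the highest or lowest muscle stood apart from the other 9 on the log2 CPM scale by Dixon's test at the 95% level, and chance gives about 1 in 20 such groups. Neither Heca nor Nipa2 was among them. Tubgcp5, in the block of Nipa2, was 3.23 in secretome replicate 9, with the next muscle at 3.67. Ccdc28a, a neighbour of Heca, was 1.65 in secretome replicate 5, with the next at 2.05. Of the listed genes, Magt1 was 4.91 in secretome replicate 9 (next 5.18), Smad5 was 5.24 in control replicate 4 (next 5.55), and Ccnk was 7.75 in secretome replicate 10 (next 7.196). Caprin1, among the genes most like Heca, was 5.67 in control replicate 2 (next 6.14), the muscle in which Heca was lowest too.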

How the results depend on the processing

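Heca and Nipa2 were higher in secretome-treated muscle under all 31 alternatives each. These fits reuse the muscles on which both genes were chosen, so their signs and passes are a description and no independent support. Leaving out 1 muscle gave log2 fold changes of 0.44 to 0.53 for Heca, with edgeR adjusted p of 0.0249 to 0.188 and a pass at 5% in 3 fits (without control replicates 1, 2 or 5), and of 0.37 to 0.43 for Nipa2, with 0 passes. Heca also passed with DESeq2 (0.51) and voom (0.44), and Nipa2 with DESeq2 (0.41). With the term for 3 ranges of library numbers, Heca had 0.39 and Nipa2 0.27, both with an edgeR adjusted p of 0.789. In libraries 6 to 15 alone the edgeR adjusted p was 0.385 for Heca and 0.452 for Nipa2. The count of genes past 5%, 1 in edgeR, was 216 with DESeq2 (70 higher, 146 lower), 3 with voom, 3 at a 10% false discovery rate, and 0 with library totals alone, the replicate block, the term for 3 ranges, libraries 6 to 15 alone or thinned counts. It was 0 to 15 with 1 muscle left out, 15 without control replicate 5. The cause was not tested.

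The labels number the replicates of both treatments without tying them together, and the deviations of same-numbered muscles correlated from -0.24 to 0.221, with 2 of 10 pairs over 0.1. With the replicate block, Heca had 0.51 and Nipa2 0.40, both with an adjusted p of 0.216 in edgeR, and Nipa1 turned to 0.019. The correlation of the members in libraries 6 to 15, 0.44, was 0.25 to 0.73 with 1 muscle left out, and 0.62 or 0.02 without the 2 farthest in centred Heca, a setting chosen after seeing the data, or in its level. Over 20 muscles it was 0.62 (permutation p = 0.00539), and 0.52 without 2.

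Of 1114 values for the other 36 named genes, 40 in 17 genes changed sign and 1 came to pass 5%. The cause was not tested. With library totals alone, Cyfip1 had -0.11, Tubgcp5 -0.048, Reps1 -0.10, Chmp1b -0.045, Caprin1 -0.024, Sfr1 -0.012 and G3bp2 -0.0077. Voom gave -0.012 for Cyfip1 and thinning -0.0038 for Reps1. The term for 3 ranges gave -0.12 for Cyfip1, -0.17 for Herc2, -0.017 for Reps1, -0.017 for Smad5, -0.11 for Mtor, 0.073 for Vegfd, 0.0072 for Ptrhd1 and 0.58 for Lsamp. Libraries 6 to 15 alone gave -0.11 for Cyfip1, -0.15 for Herc2, 0.0031 for Nmbr, -0.0053 for Reps1, -0.0056 for Smad5, -0.10 for Mtor, 0.084 for Vegfd, 0.019 for Ptrhd1 and 0.59 for Lsamp. With 1 muscle left out, Nipa1 ran from -0.15 to 0.089, Nipal3 from -0.077 to 0.023, Cyfip1 from -0.019 to 0.027, Reps1 from -0.023 to 0.097 and Nhsl1 from -0.091 to 0.011. The gene strand alone gave Heca 2 CRE cores and Nipa2 0, took the GC boxes of Nipa2 from 3 to 1, and left the CREs as they were.

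At 304 to 934 counts per muscle, counting error was 3.59 to 4.93% for the members, below the spread between mice.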
